A study of Mus musculus with 11 samples.

Results

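The 10 replication licensing genes described here are Mcm2, Mcm3, Mcm4, Mcm5, Mcm6, Mcm7, Mcm10, Cdc6, Cdt1 and Orc1. They were picked by symbol from the merged count table, and all 10 were found among its 22600 genes and among the 16496 genes that passed the filter on low counts. RNA came from the whole distal tibia, and each of the 11 mice (4 Control, 7 BMAd-DTA) gave 1 library. All mice were of the C57BL6/SJL strain, 24 weeks old and fed ad libitum. Control mice are labelled BMAd-WT by genotype. Per the study's methods, mice of both groups carried Osterix-FLPo and a FLPo-activated Adipoq-Cre (FAC), a combination known to lower circulating adiponectin. BMAd-DTA mice in addition carried a ROSA-DTA allele behind a LoxP-flanked STOP cassette, so that diphtheria toxin A, which kills the cell that makes it, is switched on in bone marrow adipocytes (BMAds). The model has limits: Cre in this line acts mainly in BMAds and reaches few marrow adipogenic precursors, and some adipocytes remain. The tibiae were powdered whole, so each library mixes marrow, bone, remaining adipocytes and adhering muscle.

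Replication licensing is the step in which a cell, in late mitosis and G1, marks each replication origin for a single use in the coming S phase. The origin recognition complex, whose largest subunit is ORC1, binds the DNA and recruits CDC6. CDT1 then brings the MCM2 to MCM7 ring, the core of the replicative helicase, which is loaded around the DNA as an inactive double ring. In S phase the ring is activated with CDC45, the GINS complex and MCM10, while geminin and ubiquitin ligases shut off CDT1 to prevent a second round. Most of these genes are switched on by E2F transcription factors as cells enter the cycle, and in marrow the dividing erythroid, myeloid and lymphoid precursors are their main source.

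The label of the tissue was checked against marker genes. The 8 adipocyte markers were detected in every mouse, with a summed level of 651 to 1345 CPM in Control and 242 to 871 CPM in BMAd-DTA mice, and all 8 log2 fold changes (BMAd-DTA minus Control) were negative, at a median of -1.24. CPM expresses a count relative to the library total, on the usual counts-per-million scale with TMM-scaled library sizes. Osteoblast and osteocyte markers and the markers of several blood cell lineages were present as well. Library totals lay between 16969529 and 18637663 counts. Over all tested genes, edgeR's quasi-likelihood test called 13 at an adjusted p under 0.05 and DESeq2 called 845, so the calls depended on the tool.

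The 10 genes lie on 8 chromosomes of GRCm38, the assembly behind mm10. Among the ring subunits, Mcm2 (ENSMUSG00000002870.8) is at chr6:88883474-88898780, Mcm3 (ENSMUSG00000041859.10) at chr1:20802968-20820312, Mcm4 (ENSMUSG00000022673.5) at chr16:15623897-15637400 and Mcm7 (ENSMUSG00000029730.16) at chr5:138164583-138172422, all on the minus strand. Mcm6 (ENSMUSG00000026355.11) is also on the minus strand, at chr1:128331590-128359664, and Mcm5 (ENSMUSG00000005410.6) is on the plus strand at chr8:75109569-75128439. Mcm10 (ENSMUSG00000026669.14) is at chr2:4989714-5012791 on the minus strand. The loading factors are all on the plus strand, with Cdc6 (ENSMUSG00000017499.15) at chr11:98907801-98923940, Cdt1 (ENSMUSG00000006585.3) at chr8:122568015-122573554 and Orc1 (ENSMUSG00000028587.18) at chr4:108579423-108614833. Counts on whole genes cover their exons, with an exon length of 2189 bases for Cdt1 up to 4954 bases for Mcm10. Mcm7 overlaps the ends of Cops6 and Ap4m1 on the other strand, and Orc1 overlaps the antisense transcript Gm12743. On the same strand, Cdt1 lies within the span of Gm20388, whose annotated exons share 0 bases with those of Cdt1. Mcm7 holds the microRNA genes Mir25, Mir93 and Mir106b on its strand, and its annotated exons share 84 bases with Mir25, 88 with Mir93 and 0 with Mir106b. The counts used here keep the strand, which does not separate genes on the same strand, and pairs on the opposite strand were 3.22% to 10.2% of those on Orc1 and at most 1.29% for the other 9 genes.

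The promoters of these genes were searched for the E2F motif, because E2F sites are the classic shared element of licensing genes. RefSeq promoter sequence of build GRCm38.p6 was matched by symbol for 9 of the 10 genes, all but Mcm4. The search covered the 250 bases before the start nearest to the annotated gene start, for the letters TTTGGCGC, TTTCGCGC, TTTCCCGC and TTTGCCGC on both strands. Of the 9 promoters, 5 held a match, against 1.86% of all 32851 promoters of the same length. The matches are shown on the gene's strand, 5′ to 3′, with the matched bases in capitals and 9 bases on each side, because these stretches are what the 5 genes share. Positions count back from -1 at the base before the RefSeq start.
Mcm5, chr8:75109347-75109376, plus strand, matched bases -153 to -142: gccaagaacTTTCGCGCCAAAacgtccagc
Mcm6, chr1:128359795-128359824, minus strand, matched bases -110 to -99: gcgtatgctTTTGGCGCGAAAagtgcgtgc
Mcm6, chr1:128359736-128359761, minus strand, matched bases -47 to -40: ttggacgggTTTGGCGCgaagtagct
Mcm7, chr5:138172032-138172057, minus strand, matched bases -165 to -158: tttcgaaccGCGGGAAAcagggtgtc
Cdc6, chr11:98908004-98908029, plus strand, matched bases -138 to -131: cggtggagaGCGGGAAAtcgcctggg
Orc1, chr4:108579418-108579443, plus strand, matched bases -27 to -20: cggttagtgGCGCGAAAagttttctc
In Mcm5 and in the farther Mcm6 stretch, overlapping matches on both strands form 12 bases that read as an E2F motif from either side. The Mcm5 and Mcm6 stretches lie before the annotated gene. The RefSeq start used lay 539 bases from the GENCODE gene start for Mcm7 and 350 bases for Cdc6. The Mcm7 stretch lies in an exon of a coding GENCODE transcript. The Cdc6 and Orc1 stretches reach into the annotated gene but lie outside the exons of its coding transcripts. The CCAAT box, searched as CCAAT, was found in 7 of the 9 promoters, against 33.8% of all, and Cdc6 and Cdt1 had none. The cell cycle homology region, searched as TTTGAA, was found in 1 of 9, that of Mcm2, against 16.0% of all. A match describes the letters and is not a measured binding site.

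Compared per kilobase of exon, 5 of the 6 ring subunit genes had the highest levels of the 10, and the other, Mcm4, came after Cdt1. In Control mice Mcm7 stood at 84.1 ± 12.0 CPM per kilobase (SD, n = 4), followed by Mcm2 at 73.0, Mcm5 at 62.0, Mcm3 at 56.0 and Mcm6 at 52.7 CPM per kilobase. Cdt1 stood at 47.9 and Mcm4 at 41.6 CPM per kilobase, while Cdc6 at 21.3, Mcm10 at 11.6 and Orc1 at 8.18 CPM per kilobase were the lowest. Each gene was above the next in this order in 11 of 11 mice, except that Mcm5 was above Mcm3 in 10 and Mcm6 above Cdt1 in 8 of the 11. The ring contains each of its 6 subunits once, yet their RNA levels per kilobase were unequal. Exon length here joins the exons of all annotated coding transcripts of a gene, of which there were 1 to 3. Which of these transcripts were expressed was not measured, and a shorter expressed form would raise the per-kilobase level. Mcm7 held 22.7% ± 0.631 and Mcm4 held 11.2% ± 0.406 of the summed per-kilobase level of the 6 subunit genes in Control mice (SD, n = 4), and 22.2% ± 0.711 and 11.4% ± 0.515 in BMAd-DTA mice (SD, n = 7). The ranges of these shares overlapped between the groups for all 6 subunit genes.

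The comparison of BMAd-DTA with Control mice addresses how the licensing genes stood when BMAds were depleted. All 10 had a lower mean in BMAd-DTA mice, by 12.7% for Cdt1 to 29.8% for Cdc6 in the fitted values. The median log2 fold change of the 10 was -0.29, against 0.0018 over all 16496 genes tested. By edgeR's quasi-likelihood test 0 of the 10 had an adjusted p under 0.05, where 0.00606% of all tested genes were called lower. At an unadjusted p under 0.05 there were 9 of the 10, all but Orc1, against 8.53% of all tested genes that were lower at that level. DESeq2 called 5 of the 10 lower at an adjusted p under 0.05, namely Mcm2, Mcm6, Mcm7, Mcm10 and Cdc6, against 2.64% of the genes it tested. In none of the 10 was every BMAd-DTA mouse below every Control mouse, a pattern that 1.04% of all tested genes showed. In a bulk sample, fewer dividing cells, less RNA per dividing cell and a larger share of RNA from other cells cannot be told apart.

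**Figure D1:**
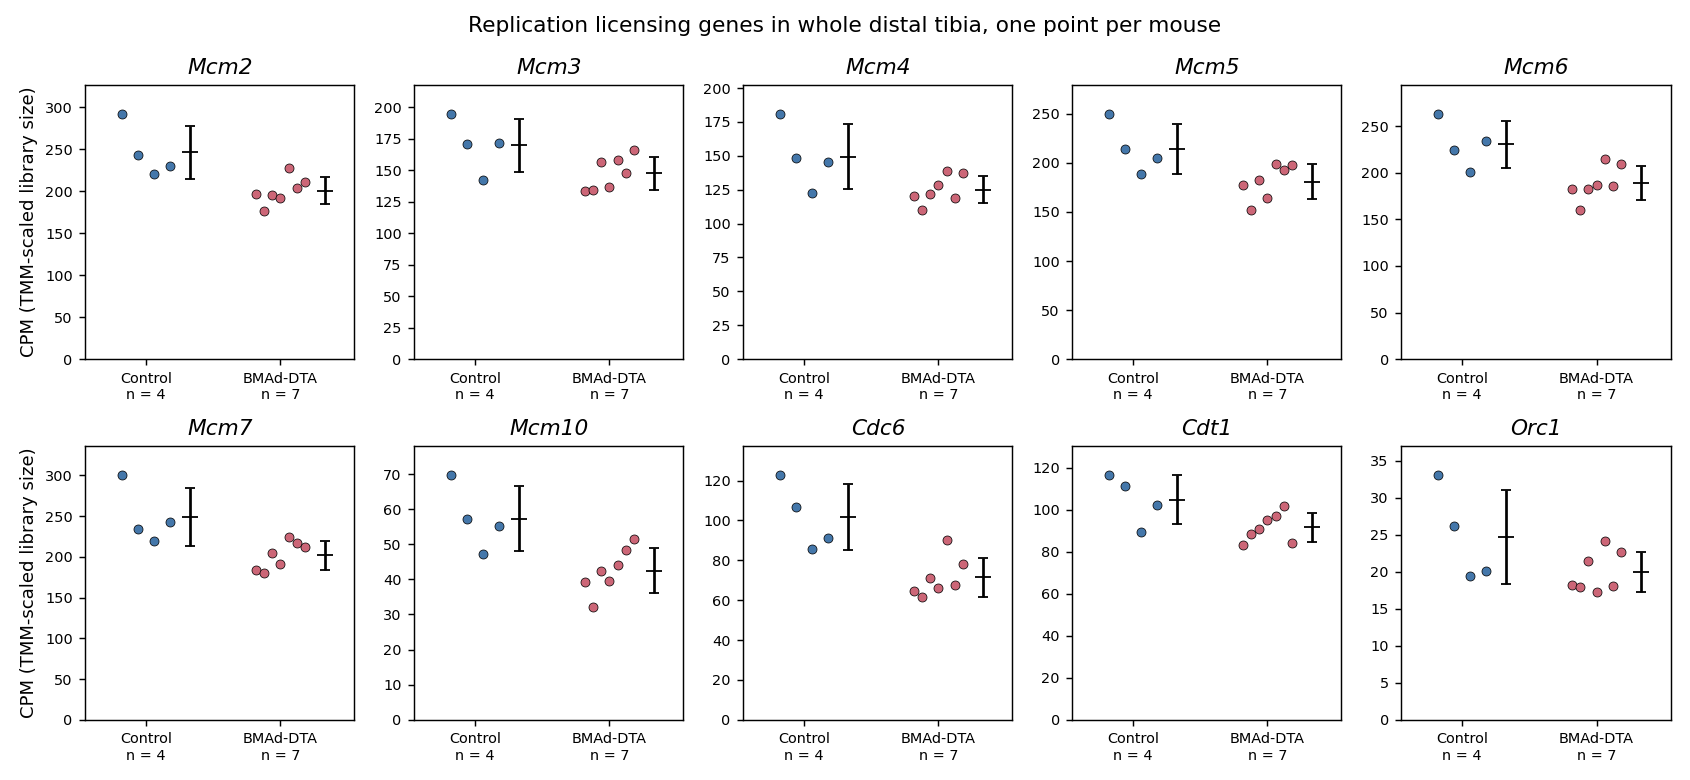
Level of each licensing gene in CPM (linear axis from 0) in every mouse, with 4 Control and 7 BMAd-DTA mice; the bar beside each group is the mean ± SD. The groups overlap in every panel, and the uppermost Control point is Control replicate 1 in all 10.

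The 6 ring subunits belong to the same family of AAA+ ATPases and sit side by side around the DNA. Mcm2 stood at 292, 243, 221 and 230.0 CPM in Control replicates 1 to 4, and at 177 (lowest), 197 (median) and 227 CPM (highest) in the 7 BMAd-DTA mice. Of the 7 BMAd-DTA mice, 6 were below the lowest Control mouse. The log2 fold change of Mcm2 was -0.30 (SE 0.084, adjusted p = 0.111 with edgeR and 0.0291 with DESeq2). Mcm7 had the same shape, with 300.5, 235, 219 and 243 CPM in the Control mice and 179.8, 205 and 225 CPM as the lowest, median and highest BMAd-DTA values. Here too 6 of 7 BMAd-DTA mice lay below all Control mice. The log2 fold change of Mcm7 was -0.30 (SE 0.090, adjusted p = 0.120 with edgeR and 0.0369 with DESeq2).

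Mcm6 was at 263, 225, 201 and 234 CPM in the Control mice and at 160.3, 186 and 215 CPM (lowest, median, highest) in BMAd-DTA mice. With 5 of the 7 BMAd-DTA mice below all Control mice, the log2 fold change was -0.29 (SE 0.087, adjusted p = 0.129 with edgeR and 0.0453 with DESeq2). Mcm6 is thus the ring gene closest to the DESeq2 threshold.

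The other ring genes did not pass with either tool. Mcm4 was at 181, 149, 123 and 146 CPM in the Control mice and at 110.3, 122 and 139 CPM (lowest, median, highest) in BMAd-DTA mice. Mcm5 was at 249.7, 214, 189 and 205 CPM in the Control mice and at 152, 182 and 199 CPM in BMAd-DTA mice. Control replicate 3, the lowest Control mouse for both genes, lay within the range of the BMAd-DTA mice. The log2 fold change was -0.26 (SE 0.094) for Mcm4 and -0.25 (SE 0.090) for Mcm5, with edgeR adjusted p of 0.192 and 0.187. Mcm3 was at 194, 171, 142 and 172 CPM in the Control mice and at 134, 148 and 166 CPM in BMAd-DTA mice. With 3 of 7 BMAd-DTA mice below all Control mice, Mcm3 had the smallest difference of the ring genes, a log2 fold change of -0.20 (SE 0.087, edgeR adjusted p = 0.266).

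Among the loading factors, CDC6 is an ATPase that joins the origin recognition complex to start loading, and its gene had the largest difference of the 10. Cdc6 was at 123, 107, 85.7 and 91.2 CPM in the Control mice and at 61.4, 67.8 and 90.3 CPM (lowest, median, highest) in BMAd-DTA mice. All BMAd-DTA mice but 1 were below all Control mice, and BMAd-DTA replicate 5 lay between the 2 lowest Control mice. The log2 fold change of Cdc6 was -0.51 (SE 0.12, adjusted p = 0.0720 with edgeR and 0.00315 with DESeq2).

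CDT1 carries the ring to the origin. Cdt1 was at 117, 111, 89.6 and 102.4 CPM in the Control mice and at 83.1, 91.1 and 102.1 CPM in BMAd-DTA mice. Control replicate 3 lay within the BMAd-DTA range and the other Control mice above it, 3 of 7 BMAd-DTA mice were below all Control mice, and the log2 fold change was -0.20 (SE 0.080, adjusted p = 0.236 with edgeR and 0.187 with DESeq2). Orc1, the least abundant of the 10 genes, was at 33.1, 26.1, 19.4 and 20.1 CPM in the Control mice and at 17.3, 18.3 and 24.2 CPM in BMAd-DTA mice. Control replicates 3 and 4 lay within the BMAd-DTA range, and the log2 fold change was -0.30 (SE 0.15, unadjusted p = 0.0598, adjusted p = 0.326, edgeR). Orc1 had the largest spread of the 10 within Control mice, a standard deviation of 0.359 on the log2 scale, against 0.160 to 0.233 for the other 9 genes.

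MCM10 acts after loading, when the helicase is activated. Mcm10 was at 69.7, 57.1, 47.2 and 55.1 CPM in the Control mice and at 32.3, 42.3 and 51.6 CPM in BMAd-DTA mice. There were 5 of 7 BMAd-DTA mice below all Control mice, and the log2 fold change was -0.43 (SE 0.12, adjusted p = 0.116 with edgeR and 0.0295 with DESeq2).

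**Figure D2:**
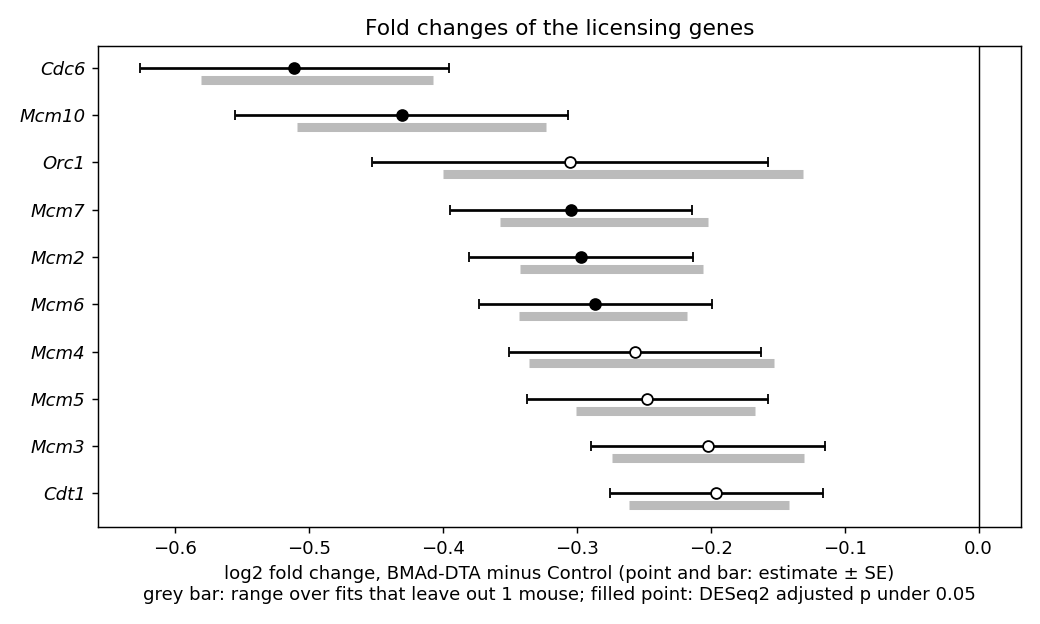
The log2 fold change of each licensing gene (BMAd-DTA minus Control, point ± SE), with the range over 11 fits that leave out 1 mouse each as a grey bar. Estimates run from -0.51 for Cdc6 to -0.20 for Cdt1, every grey bar stays below 0, and filled points mark the 5 genes called by DESeq2.

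The size of these differences rested on 1 mouse more than on any other. Control replicate 1 was the highest of all 11 mice for all 10 genes, and without it the median log2 fold change was -0.18, with 5 genes at an unadjusted p under 0.05 (Mcm2, Mcm6, Mcm7, Mcm10 and Cdc6). Of all 16766 genes tested without this mouse, 1784 were at that level in either direction. With all mice these were 2708 of 16496. Control replicate 3 was the lowest Control mouse for all 10 genes, and without it the median was -0.34 and Cdc6 passed with an edgeR adjusted p of 0.0418. Calls rose over all genes as well, from 13 with all mice to 292 without Control replicate 3, 116 of them lower in BMAd-DTA mice. BMAd-DTA replicate 2 was the lowest of all mice for 7 of the 10 genes. Whichever mouse was left out, all 10 fold changes were negative.

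The levels of the 10 genes were correlated between mice. Within groups, the Pearson correlation of log2 CPM was between 0.469 and 0.94 over the 45 pairs of genes, with a median of 0.841, as a description over 11 mice whose values share library scaling. Of the Control mice, replicates 1 and 3 lay farthest from the Control mean of the 10 genes, at 0.26 and -0.22 in mean log2 CPM, and weigh heavily in these correlations. Mcm2 with Mcm5 was the most alike pair. Cdt1 stood apart, with a correlation of 0.586 to the mean of the other 9, where the other genes had 0.858 to 0.958. Among 12963 other genes whose mean was 50 counts or more, the 10 that followed the mean of the licensing genes most closely were Uhrf1, Incenp, Rpa2, Skp1a, Ccnb2, Kif4, Ift80, Lig1, Ammecr1 and Tk1, with correlations of 0.943 to 0.959. UHRF1 maintains DNA methylation at the fork, LIG1 joins Okazaki fragments, RPA2 binds single-stranded DNA and TK1 makes thymidine phosphate. The 10 genes are mixed, however. In the gene lists described below, Ccnb2 is a mitosis and proliferation marker and Skp1a a ubiquitin ligase gene. Incenp, Kif4, Ift80 and Ammecr1 are in none of those lists. The differences between the groups varied among these genes, as Skp1a had a log2 fold change of -0.03 (edgeR adjusted p = 0.856) and Kif4 one of -0.46 (edgeR adjusted p = 0.0727).

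Ratios within a mouse compare licensing genes with partner genes and do not depend on library scaling. For 4 log2 ratios, the groups were compared by exact permutation tests over all 330 splits of the 11 mice, two-sided, with a smallest possible p of 0.00303 and adjustment over the 4. Cdc6 to Orc1 sets side by side a pair of related ATPases of the loading step. The log2 ratio was 1.89, 2.03, 2.14 and 2.18 in the Control mice and 1.73 (lowest), 1.82 (median) and 1.93 (highest) in BMAd-DTA mice. It differed by -0.23 (95% interval -0.36 to -0.098, exact permutation p = 0.0121, adjusted 0.0364), with 4 of 7 BMAd-DTA mice below all Control mice. Without Control replicate 2, 3 or 4 or BMAd-DTA replicate 2, 3 or 7 the adjusted exact permutation p rose to between 0.0571 and 0.117, and the difference stayed between -0.19 and -0.24. Cdc6 had the largest log2 fold change of the 10 genes, at -0.51, and Orc1 was at -0.30. No ratio of Cdc6 to another licensing gene was computed. The genes were chosen with earlier results known, and the adjustment over the 4 ratios does not cover that choice.

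Mcm2 to Mki67 sets a licensing gene against a general marker of cycling cells. The log2 ratio was -3.18, -3.19, -3.14 and -2.92 in the Control mice and -2.98, -2.91 and -2.53 (lowest, median, highest) in BMAd-DTA mice. It was higher in BMAd-DTA mice by 0.26 (95% interval 0.058 to 0.47, exact permutation p = 0.0182, adjusted 0.0364), with 5 of 7 BMAd-DTA mice above all Control mice. The adjusted exact permutation p was 0.0571 to 0.133 without Control replicate 1, 2 or 3 or BMAd-DTA replicate 2, 3 or 7. Mki67 itself had a log2 fold change of -0.56 (SE 0.13, edgeR adjusted p = 0.0720), below that of each licensing gene. Mki67 was also the lowest of the 10 mitosis and proliferation markers, which ran from -0.56 to -0.26 with a median of -0.35. Mcm2 at -0.30 lay within that range, and no ratio to another of these markers was computed.

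Cdt1 to Gmnn sets the loading factor against geminin, the protein that inhibits it. The log2 ratio was 2.204, 2.44, 2.14 and 2.31 in the Control mice and 2.22, 2.43 and 2.78 (lowest, median, highest) in BMAd-DTA mice. The groups overlapped, and the difference of 0.18 had a 95% interval of -0.058 to 0.42 (exact permutation p = 0.124, adjusted 0.133). Mcm10 to Mcm2 differed by -0.14 with a 95% interval of -0.33 to 0.042 (exact permutation p = 0.133, adjusted 0.133). The Control mice were at -2.06, -2.09, -2.22 and -2.06 and the BMAd-DTA mice at -2.45, -2.28 and -2.03 (lowest, median, highest), so these groups overlapped as well. Neither interval leaves out a difference of 0.

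**Figure D3:**
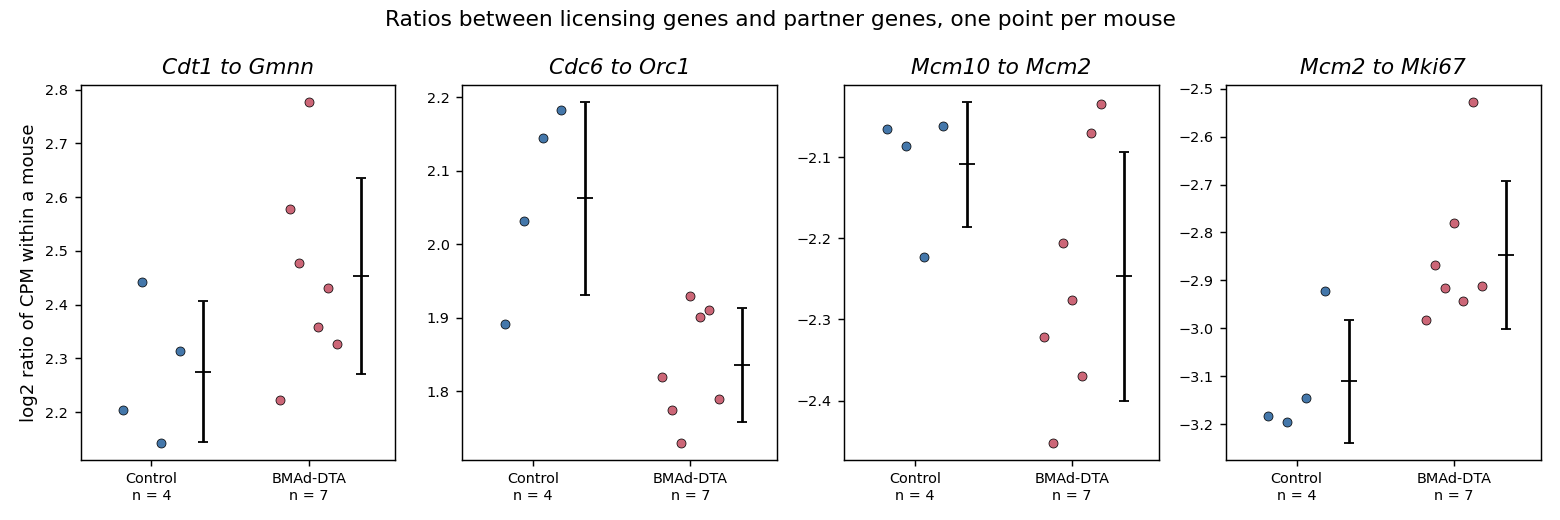
The log2 ratio of CPM between 2 genes within each mouse for 4 Control and 7 BMAd-DTA mice, with the mean ± SD beside each group; the axes differ between panels and do not start at 0. Cdc6 to Orc1 is lower and Mcm2 to Mki67 higher in BMAd-DTA mice on average, with overlap of the groups in all 4 panels.

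The other genes of the pathway were described by lists, with no list test, beside the shares of all tested genes given above. No gene of these 6 lists passed an adjusted p of 0.05 in edgeR. Of 11 other origin recognition and licensing genes, 10 had a negative and 1 a positive log2 fold change, 4 were lower at an unadjusted p under 0.05 and DESeq2 called 3 of them lower, with a median of -0.20. Gmnn was at 21.6 ± 2.44 CPM in Control (SD, n = 4) and 16.8 ± 1.95 CPM in BMAd-DTA mice (SD, n = 7), a log2 fold change of -0.37 (edgeR adjusted p = 0.113). Orc6 was at -0.33, while Kat7, a histone acetyltransferase at origins, was at -0.016 and Mcmbp, which binds MCM subunits, at 0.030 on the same scale. Other subunits of the origin recognition complex were Orc2 at -0.33 (edgeR adjusted p = 0.0675), Orc5 at -0.22, Orc4 at -0.090 and Orc3 at -0.020. Differences between subunits were not tested. Orc2, Orc3, Orc4 and Orc5 were chosen for mention after their values were seen.

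Origin firing turns loaded rings into active helicases. All 13 firing genes had a negative log2 fold change, 9 at an unadjusted p under 0.05 and 4 called by DESeq2, with a median of -0.25. Ticrr (treslin) was at -0.39 and Wdhd1, which couples helicase and polymerase, at -0.39, while the GINS subunits Gins4 and Gins2 were at -0.086 and -0.050. Of 23 replication fork genes, 22 were negative and 14 were lower at an unadjusted p under 0.05, DESeq2 called none, and the median was -0.21. Pola1, the catalytic subunit of polymerase alpha, was at -0.38 and Fen1, the flap endonuclease, at -0.35. The polymerase delta subunits Pold2 and Pold1 were at -0.061 and 0.066.

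The ubiquitin ligases that destroy licensing factors gave smaller values. Of 10 genes, 9 were negative and 3 were lower at an unadjusted p under 0.05, DESeq2 called 1, and the median was -0.15. Dtl, the receptor that targets CDT1 in S phase, had a log2 fold change of -0.43 (SE 0.13, edgeR adjusted p = 0.119) and Cul4a, its cullin, one of -0.23. Ddb1 was at -0.029 and Rbx1 at 0.13. Of 13 E2F and pocket protein genes, 11 were negative and 7 were lower at an unadjusted p under 0.05, DESeq2 called 2, and the median was -0.25. Tfdp2, an E2F partner, was at -0.51 and E2f4 at -0.36, while the pocket protein gene Rbl2 was at 0.065 and E2f5 at 0.21.

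Among 10 markers of mitosis and proliferation, all 10 were lower at an unadjusted p under 0.05, DESeq2 called 8, and the median was -0.35. Mki67 at -0.56 and Top2a, the topoisomerase of dividing cells, at -0.42 had the largest differences, and the mitotic kinase genes Plk1 and Aurkb were at -0.28 and -0.26. The licensing genes thus had a median between that of the mitotic markers and those of the other replication lists.

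**Figure D4:**
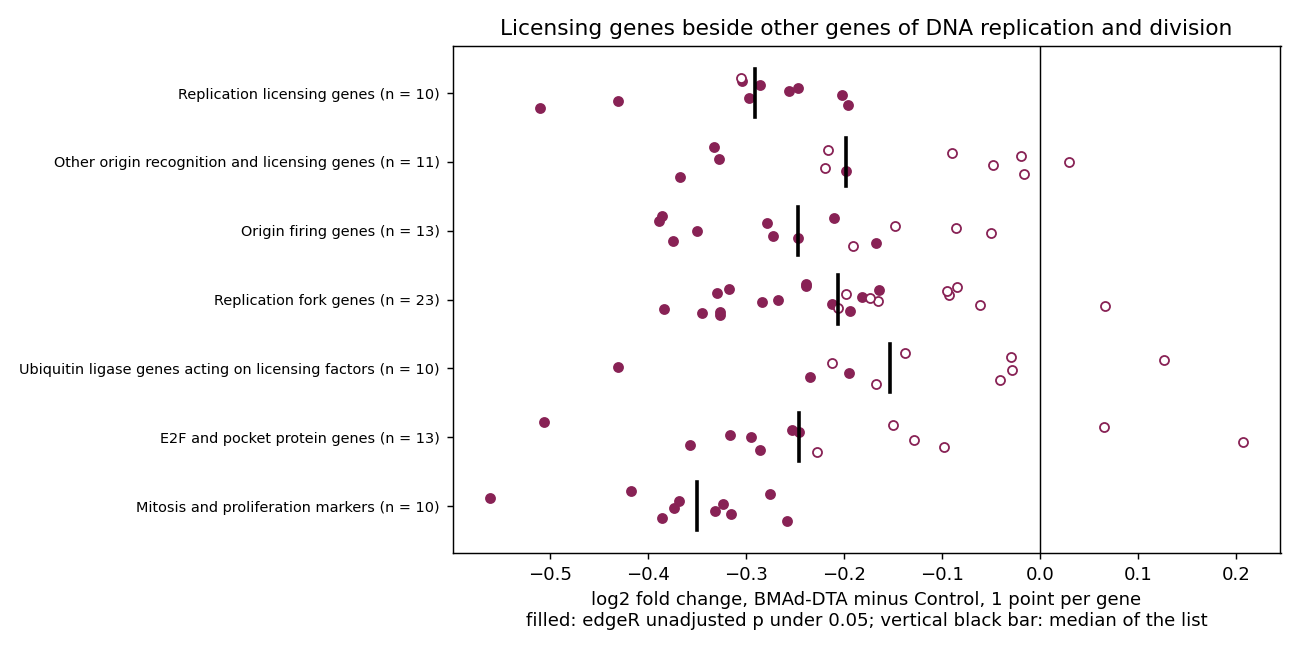
The log2 fold change (BMAd-DTA minus Control) of each gene in the 10 licensing genes and 6 lists of replication and division genes; filled points had an edgeR unadjusted p under 0.05 and the black bar is the list median. List medians run from -0.35 for the mitosis and proliferation markers to -0.15 for the ubiquitin ligase genes.

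A pair of licensing genes have a head-to-head neighbour whose start lies within 1000 bases on the other strand. Prkdc, the catalytic subunit of the DNA-dependent protein kinase, starts 466 bases from Mcm4 and had a log2 fold change of -0.16 (SE 0.094, edgeR adjusted p = 0.417). Prpf38a, a splicing factor gene that starts 87 bases from Orc1, was at -0.16 (SE 0.085, edgeR adjusted p = 0.390). Neither neighbour passed an unadjusted p of 0.05.

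Marker genes of several cell types moved with the groups beside the licensing genes. Of the erythroid precursor markers, 7 were tested, and all 7 log2 fold changes were negative, at a median of -0.47, 6 of them at an unadjusted p under 0.05. Their summed level was 7127, 6486, 5610 and 3579 CPM in Control replicates 1 to 4 and 3687 to 5693 CPM in BMAd-DTA mice, and none of the 7 was at 0 in any mouse. Control replicate 1 had the highest sum of these markers and the highest licensing level. Control replicate 4 had the lowest erythroid sum and the third highest licensing level. Slc4a1 was the largest part of the sum, a mean of 3090 of 5701 CPM in Control mice. The log2 fold changes of all 8 osteoblast and osteocyte markers were positive, at a median of 1.06, and their sum was 1799 to 7613 CPM in Control and 9504 to 20553 CPM in BMAd-DTA mice, with no overlap. Control replicate 1 had the lowest sum of these markers.

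With the mean of the erythroid markers as a covariate, chosen after seeing the data, the median log2 fold change of the licensing genes was -0.11. In this fit 1 of the 10, Cdc6, had an unadjusted p under 0.05 (log2 fold change -0.25). The edgeR adjusted p of Cdc6 was 0.758. Of all 16496 genes tested, 1077 were at an unadjusted p under 0.05 in this fit, in either direction. With the mean of the osteoblast and osteocyte markers as a covariate, also chosen after seeing the data, the median was 0.0087 and 3 of 10 remained negative, none with an unadjusted p under 0.05. The summed CPM of these markers did not overlap between the groups. Most of the sum was Col1a1, a mean of 4720 of 5671 CPM in Control and 12016 of 13853 CPM in BMAd-DTA mice. Of the 8 markers, Col1a1, Sp7 and Alpl had every BMAd-DTA mouse above every Control mouse, and the other markers did not. The share of all tested genes with this pattern was not counted. The covariate was the mean log2 CPM of the 8, and its overlap between the groups was not examined. This fit does not tell marker level and genotype apart. The part of either cell population in the licensing values was not tested beyond these fits.

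**Figure D5:**
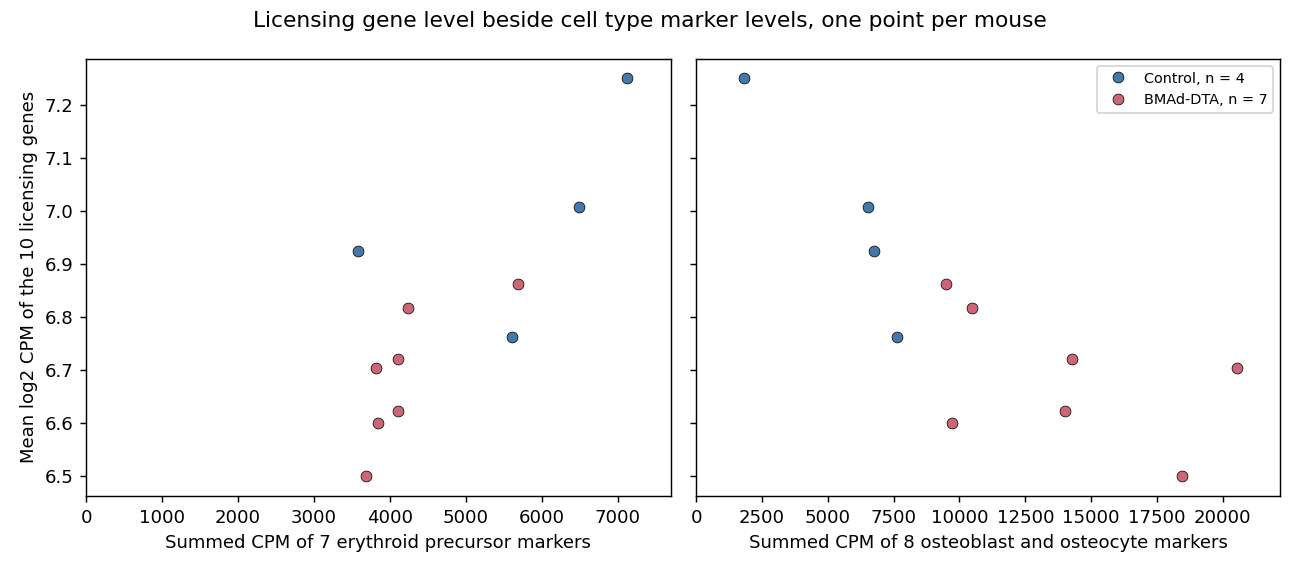
Mean log2 CPM of the 10 licensing genes (vertical axis) against the summed CPM of 7 erythroid precursor markers (left) and of 8 osteoblast and osteocyte markers (right), 1 point per mouse. Control replicate 1 has the highest licensing and erythroid level and the lowest osteoblast level, and the osteoblast sums of the 7 BMAd-DTA mice, from 9504 CPM upward, all exceed those of the 4 Control mice.

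The other marker lists differed in direction. For the neutrophil precursor markers, which stand for another dividing population, the median log2 fold change was 0.049. Of these 8 markers 3 were negative and none was at an unadjusted p under 0.05. Their sum was 3263 to 4598 CPM in Control and 3058 to 5502 CPM in BMAd-DTA mice. Late neutrophil markers had a median of -0.075 and stem and progenitor markers one of -0.0010, in both with none of 8 at an unadjusted p under 0.05. All 8 pro-B and pre-B cell markers were positive, with a median of 0.29 and 1 at an unadjusted p under 0.05, and all 8 T cell markers were positive, with a median of 0.43 and 5 at that level. Of all tested genes, 7.89% were higher at an unadjusted p under 0.05. All 8 skeletal muscle markers were negative with none at that level and a median of -0.80, and their mean log2 CPM ran from 0.27 to 5.81 in Control and from 0.33 to 5.41 in BMAd-DTA mice. With the muscle markers as a covariate the median of the licensing genes was -0.28. The 6 chondrocyte markers tested were positive, with a median of 0.19 and 2 at an unadjusted p under 0.05.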

How the data were processed

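Strand-specific paired-end mRNA libraries were sequenced from the whole distal tibia of each of 11 mice. The authors checked reads with FastQC 0.11.9, aligned them to mm10 with STAR and deposited raw counts per gene, by library and merged into 1 table. They analysed these with DESeq2. The counts are not normalized, and all 248600 values of the merged table (22600 genes) are those of the strand column that matches the reads.

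The groups follow the labels. The test was that of edgeR 4.0.16 in R 4.3.3 (filterByExpr, TMM, glmQLFit, glmQLFTest, two-sided, genotype as the only term, Benjamini-Hochberg adjustment over 16496 genes, threshold 0.05). The steps were tested on simulated data. CPM were computed by edgeR, and marker scores as the mean log2 CPM with a prior count of 2. Ratios used counts plus 0.5, and their 95% intervals came from inverting the exact permutation test. The SE of a log2 fold change was obtained from the F statistic, by dividing by its square root. Replicates are separate libraries numbered in accession order, and no pair of a group was alike within sampling noise, with a chi-square per gene of 18.3 or more. Positions came from GENCODE M21, whose identifiers matched 16488 of the tested genes without the version.

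The genes and lists were chosen with earlier results of these data known. Named genes are the 10 licensing genes, the 2 smallest and 2 largest log2 fold changes of each other pathway list, the genes of the ratios, head-to-head neighbours within 1000 bases, and the 10 genes of at least 50 mean counts most alike to the licensing genes. Alternatives were DESeq2 1.42.0, 3 scalings, 2 filters, both per-library columns, removal of 28 globin and mitochondrial genes, a muscle covariate, a prior count of 5 for the ratios, each mouse left out, and, after seeing the data, an erythroid or osteoblast covariate.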

Additional observations from a re-analysis of the deposited data

Results flagged for a closer look

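One of 28 groups of values held a mouse far from the rest of its group. In the log2 Mcm10 to Mcm2 ratio, Control replicate 3 stood at -2.223 while the other Control mice lay between -2.09 and -2.06, and its gap to the nearest was 0.844 of the range of the group. Chance gives such a gap in about 1 in 20 groups. Without this mouse the difference between the groups in this ratio was -0.18, with an exact permutation p of 0.117.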

How the results depend on the processing

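Under 21 alternatives (tool, scaling, filters, counting, muscle covariate, and each mouse left out), the 10 licensing genes all had negative log2 fold changes. At an adjusted p under 0.05, 0 of the 10 passed in the reported fit, 5 with DESeq2 and 1 without Control replicate 3 (0 to 1 over the mice left out). The count at an unadjusted p under 0.05 was 9, and 5 to 10 over the mice left out. The median was between -0.34 and -0.18 over the mice left out. Over all genes, 13 were called in the reported fit, 845 with DESeq2, 20 with DESeq2 size factors in edgeR, 3 with the muscle covariate, and 0 to 292 over the mice left out. At an unadjusted p under 0.05 the reported fit held 2708 genes.

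The 2 other covariates were chosen after seeing the data. With erythroid markers, 0 genes were called (1077 at an unadjusted p under 0.05), the count of licensing genes at an unadjusted p under 0.05 was 1, the median was -0.114, and Orc1 turned to 0.037. With osteoblast and osteocyte markers, 0 genes were called (598 at an unadjusted p under 0.05), that count was 0 and the median was 0.0087. The log2 fold change turned to 0.0068 for Mcm2, 0.034 for Mcm3, 0.10 for Mcm4, 0.049 for Mcm5, 0.010 for Mcm6, 0.0069 for Mcm7 and 0.14 for Orc1. Each of these values was smaller than its SE (0.096 to 0.206), with an unadjusted edgeR p of 0.346 to 0.951. The osteoblast fit does not tell marker level and genotype apart. The cause of the changes in these 2 fits was not tested.

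With 1 mouse left out, the ratio differences were -0.28 to -0.19 for Cdc6 to Orc1, 0.21 to 0.33 for Mcm2 to Mki67, 0.12 to 0.23 for Cdt1 to Gmnn and -0.18 to -0.10 for Mcm10 to Mcm2. The first 2 lost their call without 6 of 11 mice each. Orc1 had the lowest mean of the 10 genes, 384 counts per library, and the largest spread between Control mice.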

Other observations

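The E2F motif of the licensing promoters also occurs in other genes. Among tested genes with a RefSeq promoter, licensing genes left out, 425 held a match. Their log2 fold changes had a median of -0.038, with 58.4% negative and 16.9% lower at an unadjusted p under 0.05 in edgeR. The 11363 genes without a match had a median of 0.0002, with 49.96% negative and 8.80% lower at that level. This split was chosen after seeing the data and is given without a test, since genes are not independent replicates.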
